A study of Arabidopsis thaliana with 8 samples.

Results

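The single mutants dek4-2 and dek3-2 of Arabidopsis thaliana were compared with each other by RNA sequencing of whole seedlings at 7 days. The comparison used 4 of the 8 libraries, 2 biological replicates of each mutant, and kept the 18940 of 33557 genes whose mean over these 4 libraries was at least 1 FPKM (fragments corrected for gene length and library size). The other 4 libraries were 2 of the wild type Col-0, the shared background, and 2 of dd-2, the dek3-2 dek4-2 double mutant. They entered the estimate of the spread and are given beside the single mutants. All seedlings were grown under long days on Murashige and Skoog plates, and the labels give no treatment. The labels give no type of lesion for either allele and do not say whether a library pooled seedlings. Just inside the minimum were AT4G01920 at 1.00071 and AT4G21020 at 1.00138 FPKM, and just outside it were UGT72E3 at 0.999998 and AT5G66960 at 0.998494 FPKM.

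DEK proteins are chromatin proteins that bind DNA and histones and are named after a human oncoprotein. Arabidopsis has a small family of them, of which DEK3 and DEK4 are members, and DEK3 is known to bind histones and to influence how tightly chromatin is packed. A direct comparison of both single mutants asks where a mutation in one gene leaves a transcriptome different from that left by a mutation in the other. The difference itself is taken between the single-mutant means, while its standard error also rests on the spread within Col-0 and dd-2.

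The 8 libraries were of similar size, with 18504 to 19283 genes at 1 FPKM or more, and 1 FPKM on 1 kb of transcript stood for about 24.5 to 34.3 fragments. A pair of libraries stood apart in ways that touch the results. In dek3-2 replicate 1, seed storage genes summed to 1870 FPKM against 26.6 FPKM in dek3-2 replicate 2. In dek4-2 replicate 1, 24.8% of genes were below 0.1 FPKM against 16.1% to 18.8% in the other libraries. Green tissue genes and markers of root endodermis and root hairs were detected in every library, as a whole seedling holds.

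The results turn on a pair of places in the genome, and the sequence before each gene start is shown to set them in context. MRD1 and HEI10 lie at a locus on chromosome 1 (TAIR10, 19963047 to 19969757) that the deposited files merge with RHM2. MRD1 is on the minus strand and HEI10 on the plus strand, and 922 of the 1250 exonic bases of MRD1, or 73.8%, are also exonic in HEI10. RHM2 shares no exonic base with MRD1 and 9 with HEI10. AT5G11330 lies on the minus strand of chromosome 5 (TAIR10, 3617215 to 3618897). The 250 bases before each gene start, from RefSeq TAIR10.1, are chr1:19964713-19964962, which is inside an intron of HEI10, and chr5:3618914-3619163. Both are given 5′ to 3′ on the strand of the gene, with TATAAA on either strand in capitals.
MRD1: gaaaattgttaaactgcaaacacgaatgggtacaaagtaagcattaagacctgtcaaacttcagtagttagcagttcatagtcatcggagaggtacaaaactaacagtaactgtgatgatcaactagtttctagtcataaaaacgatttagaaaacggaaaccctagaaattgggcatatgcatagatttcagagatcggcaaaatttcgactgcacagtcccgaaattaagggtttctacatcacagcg
AT5G11330: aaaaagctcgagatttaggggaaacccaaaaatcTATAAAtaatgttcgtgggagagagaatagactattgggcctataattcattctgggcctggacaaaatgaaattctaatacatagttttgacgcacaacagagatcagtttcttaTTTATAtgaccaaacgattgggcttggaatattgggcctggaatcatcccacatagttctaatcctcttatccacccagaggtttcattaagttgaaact
The AT5G11330 sequence held TATAAA on its own strand with its first base 216 bases before the start and on the opposite strand at 100 bases. The MRD1 sequence held neither TATAAA nor CACGTG. Of 18811 windows of the same length 45.9% held TATAAA on either strand and 7.37% held CACGTG, so these matches and absences are descriptions only.

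The test was limma on log2(FPKM + 1), with p adjusted by Benjamini-Hochberg over all tested genes, and a gene below 0.05 was called. Of the 18940 genes, 3 were called higher in dek4-2 (0.0158%) and 2 lower (0.0106%), together 5 (0.0264%). On loci of 300 bp or more there were 3 calls, MRD1 and HEI10 higher and AT5G11330 lower in dek4-2. The other two lay on loci under 300 bp and are described apart. With each library left out in turn, the log2 difference ran from 4.61 to 4.72 for MRD1, 2.28 to 2.39 for HEI10 and -1.80 to -1.59 for AT5G11330. A fit without a dek3-2 or dek4-2 library leaves 1 library in that group. The spread of that group is then not measured, so calls of such fits are not counted.

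MRD1, named for a transcript that responds downward in the methionine-overaccumulating mutant mto1, had the largest difference of these 3 genes. It stood at 0.261 and 0.297 FPKM in dek3-2 and at 32.7 and 30.2 FPKM in dek4-2. Both Col-0 libraries lay between the single mutants, at 16.0 and 14.3 FPKM, and dd-2 stood with dek3-2 at 0.180 and 0.464 FPKM. No library of dek3-2 came near any of dek4-2. The ratio of mean FPKM was 113, and on the log2(FPKM + 1) scale the difference was 4.66 (SE 0.14, 95% interval 4.34 to 4.98, limma adjusted p = 4.06e-06). The dek3-2 values rested on about 8.2 and 8.6 fragments and the dek4-2 values on about 1034 and 884, so the ratio itself is imprecise.

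HEI10, a RING-type protein needed for meiotic crossovers, was read at 0.640 and 0.553 FPKM in dek3-2 and at 7.38 and 6.74 FPKM in dek4-2. Col-0 lay between them, at 2.58 FPKM in both libraries, and dd-2 stood at 0.713 and 0.626 FPKM, again with dek3-2. The difference was 2.33 on the log2(FPKM + 1) scale (SE 0.13, limma adjusted p = 4.15e-04). The kit kept strand, but whether counting used it is not given in the sources used here, so fragments from the shared exonic bases cannot be assigned to MRD1 or HEI10. The 2 calls may therefore count the same molecules. RHM2, a rhamnose synthase of seed mucilage and the third gene of the merged locus, stood at 35.2 and 33.2 FPKM in dek3-2 and at 30.0 and 33.8 FPKM in dek4-2. These values overlapped (difference -0.10, SE 0.08, limma adjusted p = 1.00).

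AT5G11330, annotated as a FAD/NAD(P)-binding oxidoreductase, gave the call in the other direction. It stood at 71.4 and 67.5 FPKM in dek3-2 and at 19.2 and 22.5 FPKM in dek4-2. Here Col-0 lay with dek3-2, at 66.9 and 68.6 FPKM, and dd-2 with dek4-2, at 25.8 and 20.9 FPKM. The ratio of dek3-2 to dek4-2 mean FPKM was 3.34, and the log2 difference was -1.69 (SE 0.11, 95% interval -1.95 to -1.44, limma adjusted p = 0.00129). About 2841 to 3292 fragments in dek3-2 and 883 to 962 in dek4-2 stood behind these values.

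**Figure D1:**
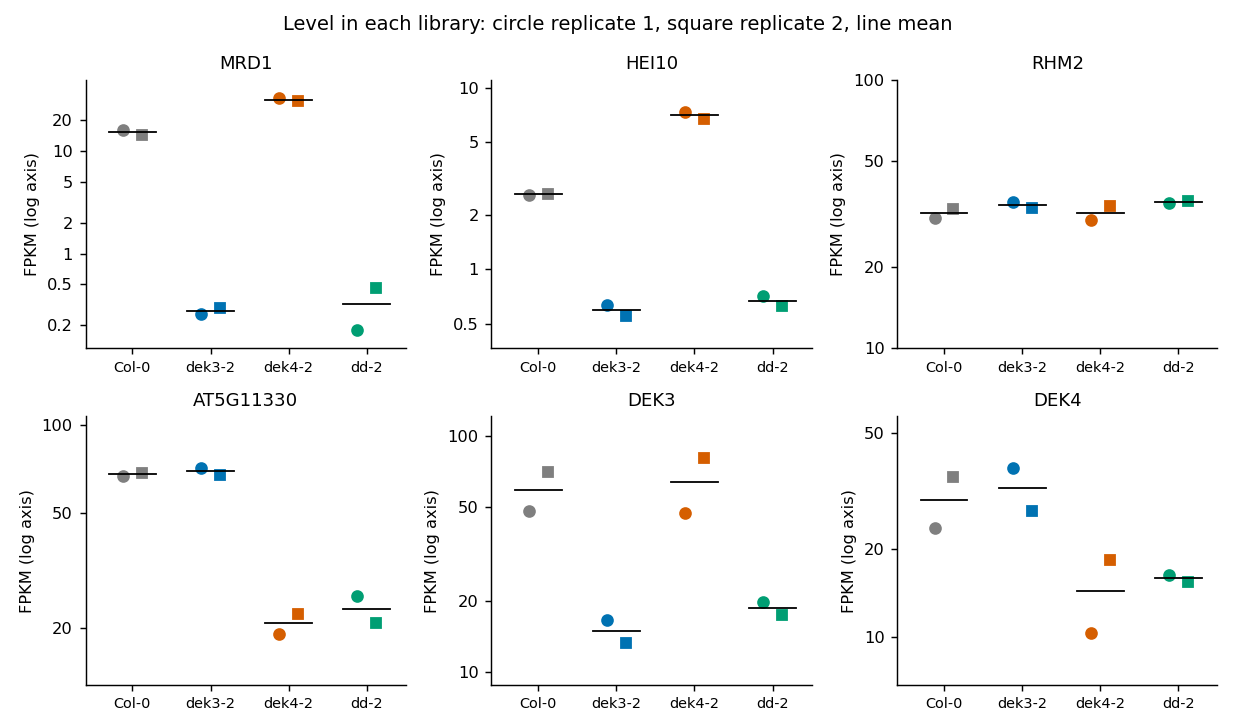
FPKM in each of the 8 libraries (vertical log axis, its range set per panel) for the 3 genes of the MRD1 locus, AT5G11330, DEK3 and DEK4. MRD1 and HEI10 are lowest in dek3-2 and dd-2 and highest in dek4-2, RHM2 is level at 30.0 to 35.2 FPKM, and AT5G11330 is low in dek4-2 and dd-2.

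Set beside the wild type in the same fit, MRD1 and HEI10 were called only in dek3-2, where they were lower, and AT5G11330 only in dek4-2, where it was lower. For MRD1 the log2 difference from Col-0 was -3.65 in dek3-2 (limma adjusted p = 2.99e-05) and 1.01 in dek4-2 (limma adjusted p = 0.363). For HEI10 it was -1.17 in dek3-2 (limma adjusted p = 0.0483) and 1.17 in dek4-2 (limma adjusted p = 0.0959). For AT5G11330 it was 0.03 in dek3-2 (limma adjusted p = 0.999) and -1.66 in dek4-2 (limma adjusted p = 0.00607). Both contrasts use the same Col-0 libraries.

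The mutated genes themselves were compared to check the labels. DEK3 stood at 16.7 and 13.3 FPKM in dek3-2 and at 47.3 and 80.7 FPKM in dek4-2, where Col-0 had 48.3 and 70.2 FPKM. DEK4 stood at 38.0 and 27.0 FPKM in dek3-2 and at 10.3 and 18.4 FPKM in dek4-2, where Col-0 had 23.7 and 35.2 FPKM. Each gene was thus lower in both libraries labelled with its own mutation than in either library of the other mutant, and neither was at 0.

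Neither difference was called. For DEK3 it was 1.98 (SE 0.28, limma adjusted p = 0.480), and for DEK4 it was -1.16 (SE 0.31, limma adjusted p = 1.00). The dek4-2 libraries differed from each other in both genes, replicate 2 being the higher. DEK3 passed with length, GC and purine trends removed (limma adjusted p = 7.76e-04) and in no other alternative that kept both libraries of each mutant. Over the 20 alternatives its difference ran from 1.61 to 2.36, the highest without dek4-2 replicate 1. The other two DEK genes, DEK1 and DEK2, differed by -0.02 each, and their libraries overlapped.

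Genes beside the mutated genes and beside MRD1 were examined, 5 tested genes on either side of each. Around DEK3 the 10 log2 differences ran from -0.17 to 0.16, with 3 above 0. Around DEK4 they ran from -0.25 to 0.11, with 2 above 0. Around MRD1 they ran from -0.79 to 0.02, with 2 above 0. The -0.79 belonged to AT1G53542 (SE 1.85), on a locus under 300 bp, and the next lowest was HSP17.6C at -0.29. Over all tested genes 35% lay above 0. None of the 30 was called by limma, and the lowest unadjusted limma p among them was 0.103.

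**Figure D2:**
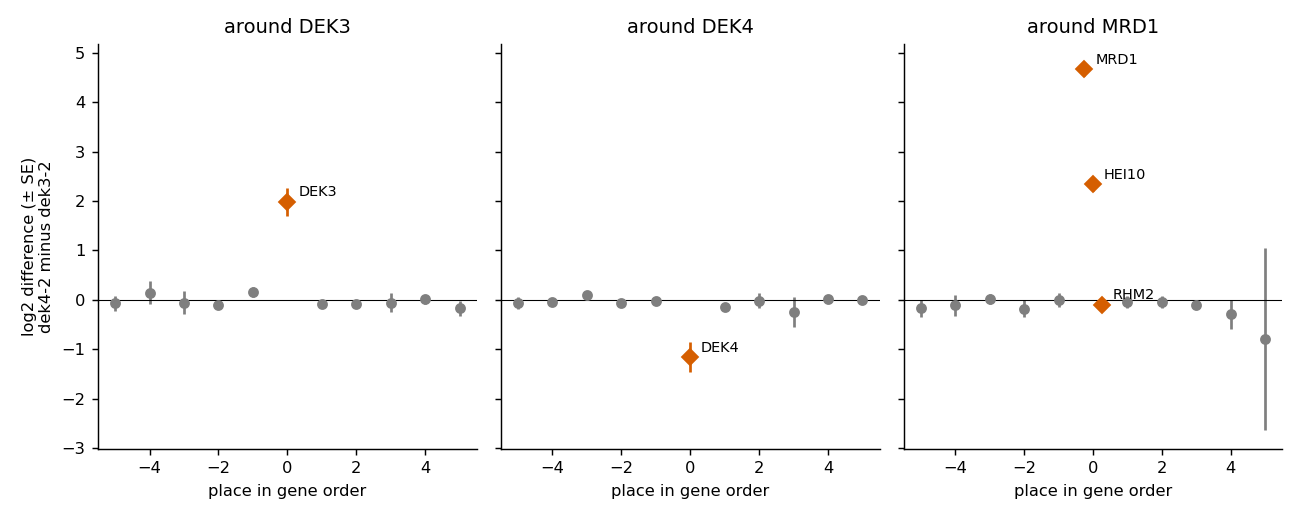
Log2 difference between dek4-2 and dek3-2 (vertical axis, ± SE) against place in gene order (horizontal axis) for 5 tested genes on either side of DEK3, DEK4 and the MRD1 locus. The named genes are orange diamonds, and of these DEK3, DEK4, MRD1 and HEI10 lie away from 0. The neighbours (grey) lie between -0.79 and 0.16, the lowest being AT1G53542 on a locus under 300 bp.

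Across all tested genes the pair of mutants was close. The median log2 difference was -0.04, the middle of the distribution ran from -0.11 at the lower quartile to 0.03 at the upper, and 31 genes lay above and 84 below a 2-fold difference. Of all tested genes 6629 lay above and 12311 below 0, against 9320 and 9620 after median-of-ratios scaling. Counts of signs within a list are to be read beside this share. At an unadjusted limma p below 0.05 there were 120 genes higher (0.634%) and 395 lower in dek4-2 (2.09%), in all 515 (2.72%), where an even spread of p over all genes would give 947. Both dek4-2 libraries lay above both dek3-2 libraries in 1526 genes (8.06%) and below them in 3567 genes (18.8%). After median-of-ratios scaling these counts were 2443 (12.9%) and 2472 (13.1%), so the excess below is not kept under that scaling. With 2 libraries against 2, an exact two-sided permutation test of one gene cannot go below p = 0.333. A gene with the median standard error of 0.12 would have needed a difference of about 1.2 to reach the p of the last call.

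**Figure D3:**
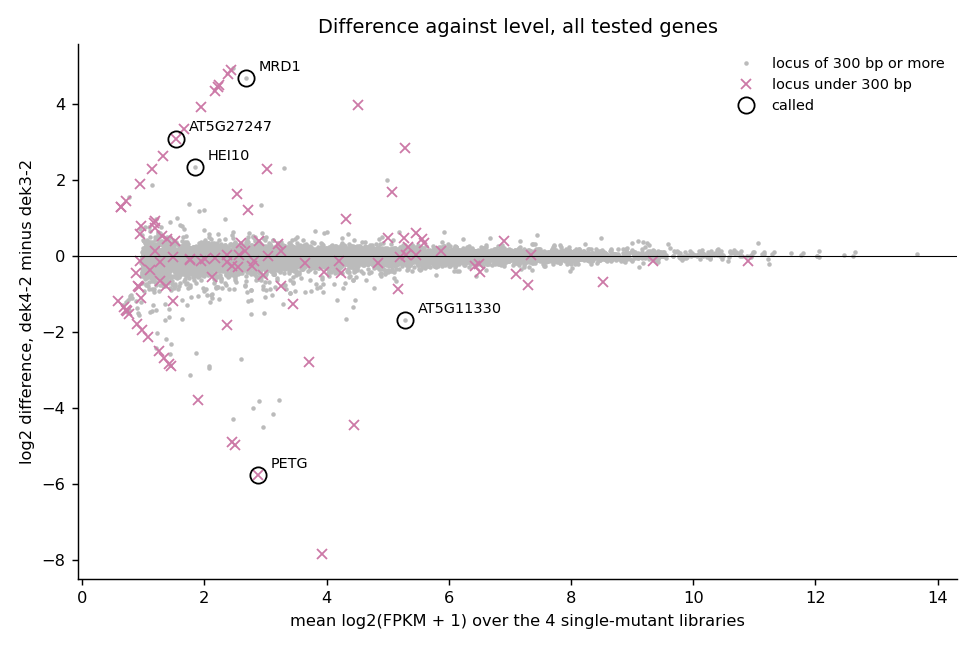
Log2 difference between dek4-2 and dek3-2 (vertical axis) against the mean log2(FPKM + 1) of the 4 libraries (horizontal axis) for all 18940 tested genes. The 5 calls are circled, and loci under 300 bp (crosses) spread from -7.86 to 4.89, most widely where one group is near 0.

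Short loci were set apart because few fragments can be assigned to them. Of 109 tested loci under 300 bp, 43 (39.4%) differed by more than 2-fold, against 72 (0.382%) of the 18831 longer ones. The median standard error was 0.88 against 0.12, and 51.4% against 0.0584% were listed at 0 in at least 1 of the 4 libraries. PETG, a small subunit of the chloroplast cytochrome b6f complex on a locus of 114 bp, read 55.9 and 51.4 FPKM in the dek3-2 libraries, and the other 6 libraries listed it at 0 (log2 difference -5.77, limma adjusted p = 7.81e-07). AT5G27247, an uncharacterized protein on 147 bp, read 4.80 and 11.3 FPKM in the dek4-2 libraries, with 0 listed in the other 6 (3.08, limma adjusted p = 0.0245). Both loci are shorter than the 180 to 190 bp that the values show to be taken off a gene's length before scaling, so an FPKM there has no plain meaning. Of all 33557 genes, 4 carried a status other than OK in any library. Whether an exact 0 on a short locus is a failed estimate was not tested. The extreme in each direction was not called. These were MIR399D at -7.86 on 100 bp (337 and 159 FPKM in dek3-2, 0 in dek4-2, limma adjusted p = 1.00) and the tRNA gene AT3G01705 at 4.93, on a merged locus of 2207 bp (928 FPKM in dek4-2 replicate 2 and 0 elsewhere, limma adjusted p = 1.00).

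Below the threshold, the genes with the lowest p whose libraries did not overlap are given as not called. On the side higher in dek4-2, AT3G62510, a disulfide isomerase-like protein, stood at 0 and 0.337 FPKM in dek3-2 and at 3.53 and 2.95 FPKM in dek4-2. Col-0 was at 1.39 and 2.60 FPKM and dd-2 at 3.70 and 4.28 FPKM, so dek3-2 lay below all other libraries. The difference was 1.87 (SE 0.23, limma adjusted p = 0.0792), on about 0.0 and 2.0 fragments in dek3-2 and 23.5 and 17.5 in dek4-2. It passed without Col-0 replicate 1 (0.0325), without Col-0 replicate 2 (0.0337) and on the 4 libraries alone (0.0456), within a range of 0.0325 to 0.511 over the 20 alternatives.

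The next on that side were DEK3, then AT1G76892 (1.35), AT1G63055 (0.88), SAUR23 (0.79), OEP24A (0.65), CYP71A25 (0.58), PIF4 (0.57), CSLB3 (0.49) and AT1G22160 (0.36), with limma adjusted p from 0.992 to 1.00 for all but DEK3. AT1G76892, annotated as a non-coding RNA on a locus merged with another gene, stood at 0.448 and 2.07 FPKM in dek3-2 and at 4.37 and 4.39 FPKM in dek4-2. It passed in no alternative that kept both libraries of each mutant. Without dek3-2 replicate 2, which leaves 1 dek3-2 library, its difference was 1.89, within 0.81 to 2.04 over the 20 alternatives. SAUR23 belongs to a family of small auxin-induced RNAs tied to cell expansion, and it stood at 1.29 and 1.3 FPKM in dek3-2 and at 2.78 and 3.19 FPKM in dek4-2. PIF4, a transcription factor that promotes growth in warmth and shade, stood at 3.25 and 2.49 FPKM in dek3-2 and at 5.38 and 4.14 FPKM in dek4-2. In both genes dd-2 was higher than either single mutant, at 4.04 and 3.60 FPKM for SAUR23 and at 7.43 and 7.27 FPKM for PIF4.

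On the side lower in dek4-2, AT5G60630, an uncharacterized protein on a locus that the files merge with another gene, stood at 10.5 and 9.60 FPKM in dek3-2 and at 4.51 and 5.25 FPKM in dek4-2 (-0.91, SE 0.11, limma adjusted p = 0.0818). Col-0 was lower than both at 3.33 and 3.68 FPKM, and dd-2 was near dek3-2 at 12.1 and 11.8 FPKM. Against Col-0, AT5G60630 was called in dek3-2 (1.29, limma adjusted p = 0.0149) and not in dek4-2 (0.38). AT3G25930, of the adenine nucleotide alpha hydrolase superfamily, stood at 7.23 and 9.39 FPKM in dek3-2 and at 3.74 and 4.22 FPKM in dek4-2 (-0.89, limma adjusted p = 0.230). AT4G26055 (-1.16) and AT4G34930 (-0.79) followed, with limma adjusted p of 0.480 and 0.579. The difference of AT4G26055 ran from -1.46 to -0.85 over the 20 alternatives, and it passed in none that kept both libraries of each mutant.

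Also on that side, 3 uncharacterized genes lie next to each other on chromosome 3 between positions 4371470 and 4376959, AT3G13432 (-1.40), AT3G13435 (-0.88) and AT3G13437 (-0.66). Their limma adjusted p was 0.713, 0.713 and 0.992. AT3G13432 stood at 4.29 and 2.58 FPKM in dek3-2 and at 0.530 and 0.776 FPKM in dek4-2. In all 3 the dek4-2 libraries lay below those of the other groups as well: Col-0 held 1.2 to 2.41 FPKM of AT3G13432, 1.78 to 1.86 FPKM of AT3G13435 and 3.55 to 4.08 FPKM of AT3G13437.

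Plant defensins, small antifungal peptides induced by jasmonate and ethylene together, made up part of the same end of the ranking. In the list of 10 genes of that branch, 9 lay below 0 with a median of -0.29, both dek4-2 libraries were below both dek3-2 libraries in 5, where the share over all genes was 18.8%, and none was called. PDF1.2C stood at 9.24 and 12.1 FPKM in dek3-2 and at 3.25 and 2.80 FPKM in dek4-2 (-1.53, SE 0.18, limma adjusted p = 0.0651). Col-0 was at 1.87 and 2.60 FPKM and dd-2 between the single mutants at 5.82 and 4.67 FPKM. Against Col-0, PDF1.2C was called in dek3-2 (1.85, limma adjusted p = 0.0225) and not in dek4-2 (0.32). Between the single mutants it passed on the 4 libraries alone (limma adjusted p = 0.0456) and in no other alternative that kept both libraries of each mutant. The difference ran from -1.77 to -1.35 over the 20 alternatives.

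PDF1.2 stood at 35.8 and 33.1 FPKM in dek3-2 and at 14.8 and 6.85 FPKM in dek4-2 (-1.67). PDF1.3 stood at 30.2 and 37.6 FPKM in dek3-2 and at 19.2 and 8.01 FPKM in dek4-2 (-1.36). PDF1.1 stood at 6.64 and 3.02 FPKM in dek3-2 and at 0.986 and 0.538 FPKM in dek4-2 (-1.67). In all of these, dek3-2 lay above every other library. Their limma adjusted p was 1.00, 1.00 and 0.833, and none passed in an alternative that kept both libraries of each mutant. Over the 20 alternatives PDF1.2 ran from -2.17 to -1.16 and PDF1.3 from -1.95 to -0.78. These genes are near-identical copies in part, so fragments may be split among them.

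Jasmonate genes outside that branch did not lie apart as a list. Of 15, 5 lay above 0 and 10 below, with a median of -0.05 beside -0.04 over all genes. CORI3, a coronatine-induced protein, stood at 20.0 and 22.9 FPKM in dek3-2 and at 15.7 and 14.8 FPKM in dek4-2 (-0.46, limma adjusted p = 0.992). VSP1, a vegetative storage protein, had -0.30 (limma adjusted p = 1.00). Without dek4-2 replicate 1 the list counted 12 above and 3 below 0. All tested genes then counted 9647 above and 9284 below 0, against 6629 and 12311 in the main fit.

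Of 18 tested genes of glucosinolate synthesis, the sulfur-rich defence compounds of the cabbage family, 2 lay above and 16 below 0, with a median of -0.12 and no call. Over all tested genes 35% lay above 0. MAM3, which lengthens the methionine-derived side chain, stood at 45.4 and 43.1 FPKM in dek3-2 and at 32.9 and 35.0 FPKM in dek4-2 (-0.37, SE 0.07, limma adjusted p = 0.901). CYP79F1 (-0.34) and BCAT4 (-0.30) of the same aliphatic branch and CYP79B2 (-0.25) of the indolic branch had limma adjusted p of 1.00. The dek4-2 libraries were below the dek3-2 libraries in 8 of the 18, where the share over all genes was 18.8%. After median-of-ratios scaling, 6 lay above and 12 below 0.

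Genes of root hairs lay below 0 in all 7 tested, with a median of -0.61 and both dek4-2 libraries below both dek3-2 libraries in all 7, where the share over all genes was 18.8%. None was called, and 4 had an unadjusted limma p below 0.05, where 2.09% of all genes did on this side. PRP3, a proline-rich cell wall protein, stood at 22.7 and 30.1 FPKM in dek3-2 and at 14.4 and 8.45 FPKM in dek4-2 (-1.17, SE 0.41). RHS19, a root hair peroxidase, stood at 11.5 and 17.4 FPKM in dek3-2 and at 6.84 and 4.1 FPKM in dek4-2 (-1.26). EXPA7, an expansin, had -0.82 and LRX1, an extensin-like wall protein, -0.58. The limma adjusted p of these 4 genes was 1.00.

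The wild type varied as widely as the single mutants differed. The summed level of the 8 root hair genes was 48.9 and 65.3 FPKM in dek3-2, 31.4 and 20.8 in dek4-2, 57.7 and 66.6 in dd-2, and 58.7 and 26.3 in Col-0. In bulk seedlings, fewer root hair cells and less RNA per cell cannot be told apart, and how much root a library held was not measured. Genes of the root endodermis summed to 21.8 and 26.5 FPKM in dek3-2 and 22.6 and 19.2 in dek4-2. Of 6 tested endodermis genes all lay below 0 with a median of -0.16, where 35% of all tested genes lay above 0, and none was called.

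**Figure D4:**
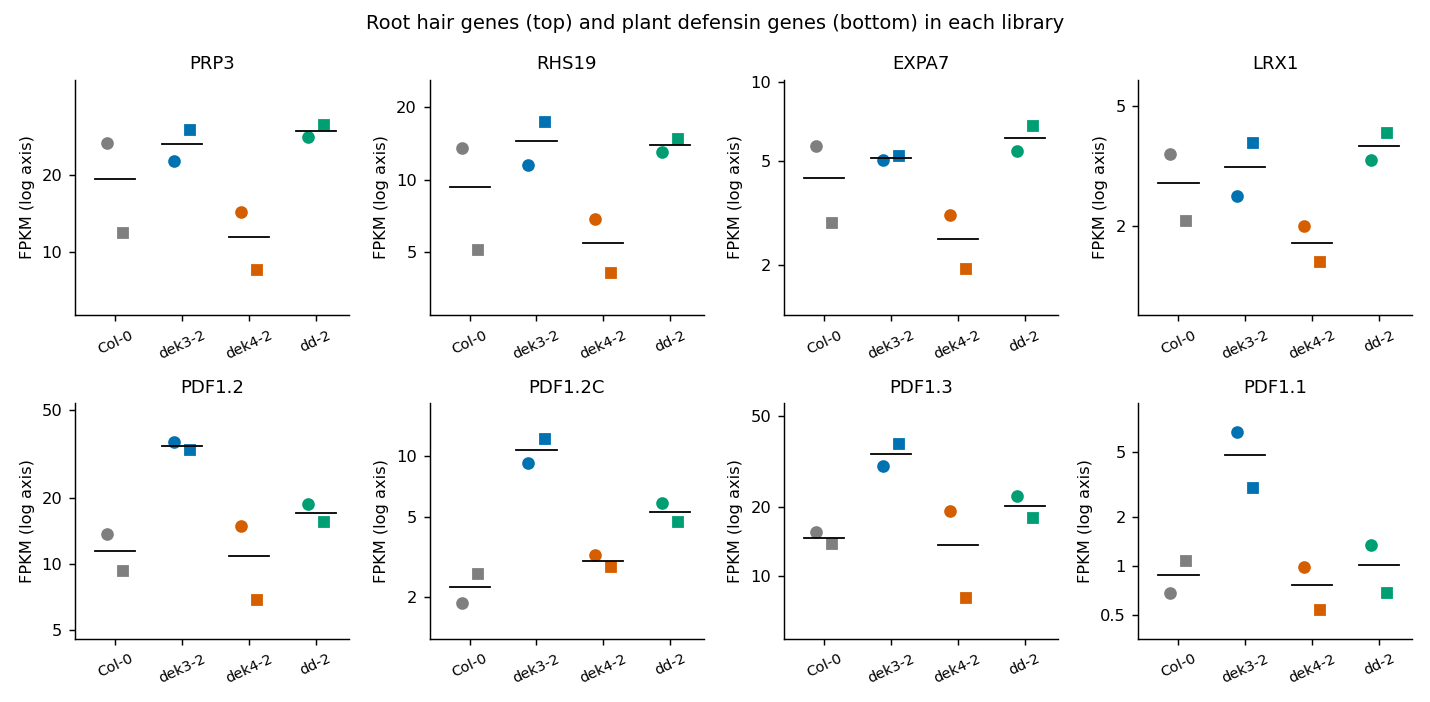
FPKM in each library (vertical log axis, its range set per panel) of 4 root hair genes (top) and 4 plant defensin genes (bottom), circles for replicate 1, squares for replicate 2 and lines for group means. In the defensins dek3-2 is above the other groups; in the root hair genes dek4-2 is below dek3-2, and the Col-0 replicates lie apart.

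Genes of light harvesting and of Rubisco, the carbon-fixing enzyme, lay the other way. Of 22, 21 were above 0 with a median of 0.18, and both dek4-2 libraries were above both dek3-2 libraries in 10, where the share over all genes was 8.06%. LHCB2.2 stood at 16.5 and 14.0 FPKM in dek3-2 and at 17.0 and 26.7 FPKM in dek4-2 (0.46). LHCB2.3 (0.49), LHCB3 (0.29) and LHCA4 (0.18), also chlorophyll-binding antenna proteins, had the lowest p beside it, with limma adjusted p of 1.00 for all 4. Without dek4-2 replicate 1, the library with more genes near 0, 15 were above and 7 below 0. Over all tested genes 9647 lay above and 9284 below 0 in that refit. The summed level of the list overlapped, at 34935 and 35410 FPKM in dek3-2 and 39129 and 34726 in dek4-2.

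Genes induced by darkness or sugar shortage lay above 0 in 7 of 8, with a median of 0.17 and no call. BGLU30, a beta-glucosidase also called DIN2, stood at 2.41 and 1.92 FPKM in dek3-2 and at 3.17 and 5.19 FPKM in dek4-2 (0.69, SE 0.20, limma adjusted p = 1.00). In dd-2 it was higher than in either, at 10.3 and 8.34 FPKM. ASN1, an asparagine synthetase, had 0.41, SEN1 0.30 and DIN4 0.17, with limma adjusted p of 1.00. Of 11 auxin-induced genes 8 lay above 0 with a median of 0.09, led by SAUR23 and by SAUR20 at 0.44 (limma adjusted p = 1.00).

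**Figure D5:**
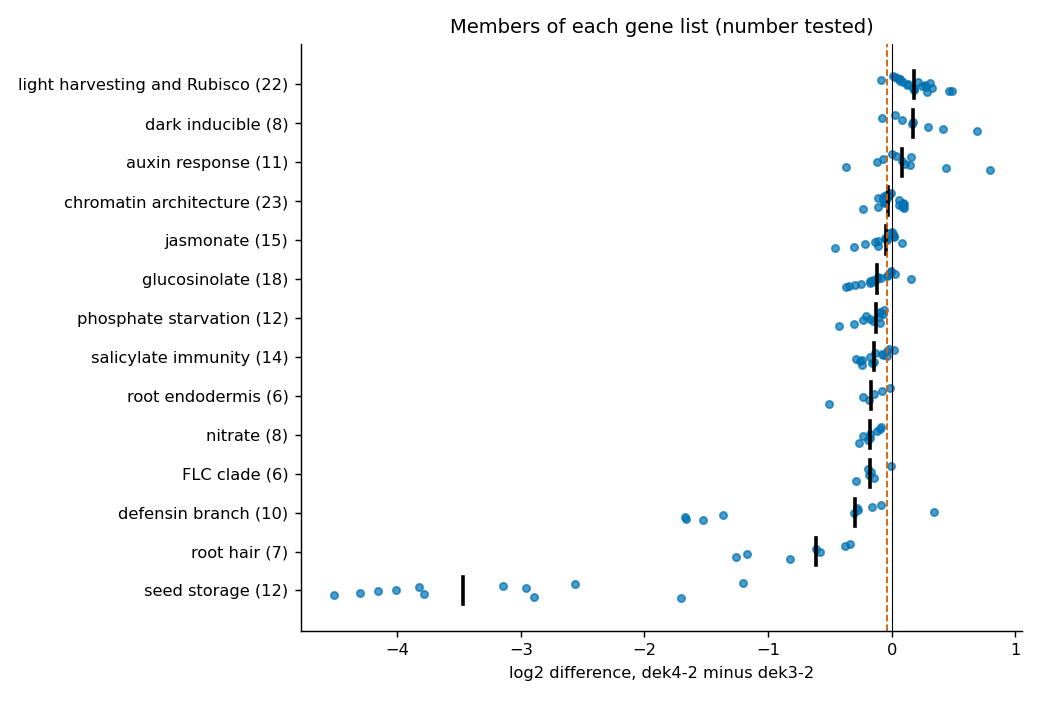
Log2 difference between dek4-2 and dek3-2 (horizontal axis) of each tested member of 14 gene lists, ordered by median (black bars), with the median of all tested genes as a dashed line at -0.04. Seed storage genes lie farthest left at a median of -3.47, a value set by dek3-2 replicate 1, and root hair genes next at -0.61.

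Seed storage genes had the lowest median of any list, -3.47, with all 12 tested below 0, and none was called. They encode storage proteins and oleosins that a seedling normally uses up after germination. The summed level was 1870 FPKM in dek3-2 replicate 1, 26.6 in dek3-2 replicate 2, 11.1 and 12.7 in dek4-2, 9.0 and 135 in dd-2 and 10.2 and 10.1 in Col-0. Without dek3-2 replicate 1 the median was -0.65, with 1 above and 11 below 0. One library thus sets the size of this difference. Some members reached the minimum of 1 FPKM only through dek3-2, as dek4-2 means were 0.567 FPKM for SESA5, 0.670 for SESA2 and 0.427 for PER1. For such genes the filter itself favours a sign below 0. It was set with dek3-2 replicate 1 in the refit too, so neither count of signs is evidence of a difference.

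Lists for nitrate and phosphate also lay below 0 without a call, while of 11 tested iron genes 5 lay above and 6 below 0 with a median of -0.02. Over all 18940 tested genes 6629 lay above and 12311 below 0, with a median of -0.04. All 8 tested nitrate genes were below 0 with a median of -0.17, among them LBD38, a nitrate-induced repressor, at -0.26 and NIR1, nitrite reductase, at -0.19. All 12 phosphate starvation genes were below 0 with a median of -0.13, led by the phosphate transporters PHT1;1 at -0.42 and PHT1;4 at -0.30. Without dek4-2 replicate 1 the phosphate list counted 8 above and 4 below 0, while the nitrate list stayed at 8 below. Of 14 tested salicylate immunity genes, 13 lay below 0 with a median of -0.14, and without dek4-2 replicate 1 there were 8 above and 6 below. In that refit 9647 of all tested genes lay above and 9284 below 0. The limma adjusted p of each gene named here was 1.00.

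Because MRD1 is named for a methionine mutant and HEI10 works in meiosis, genes of both processes were examined. Of 11 methionine genes, 3 lay above and 8 below 0 with a median of -0.08 and no call. CGS1, the cystathionine synthase that is mutated in mto1, stood at 210 and 235 FPKM in dek3-2 and at 193 and 208 FPKM in dek4-2 (-0.15, limma adjusted p = 1.00). MGL, a methionine lyase, stood at 40.4 and 34.4 FPKM in dek3-2 and at 48.0 and 43.3 FPKM in dek4-2 (0.28, limma adjusted p = 1.00). Of 9 crossover genes 2 reached the minimum level, and neither was called. All 4 rhamnose synthesis genes lay within 0.10 of 0.

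Chromatin proteins other than DEK were also close between the mutants. In a list of 23 histone variants, HMG proteins, histone chaperones and topoisomerases, 8 lay above and 15 below 0, with a median of -0.03 and no call. After median-of-ratios scaling 12 lay above and 11 below.

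Flowering genes were compared because floral timing is a trait studied in chromatin mutants. All 6 members of the FLC clade of floral repressors lay below 0, with a median of -0.18, and none was called. Over all tested genes 35% lay above 0. FLC stood at 7.83 and 5.15 FPKM in dek3-2 and at 5.83 and 5.10 FPKM in dek4-2 (-0.19, SE 0.18). MAF5 stood at 4.27 and 5.78 FPKM in dek3-2 and at 3.89 and 3.88 FPKM in dek4-2 (-0.29, SE 0.16). The other members were MAF4 at -0.19, MAF2 at -0.17, FLM at -0.14 and MAF3 at -0.01. In the clade 1 lay above 0 after median-of-ratios scaling and 3 without dek3-2 replicate 1. All tested genes counted 9320 above and 9620 below 0 under that scaling, and 8693 above and 10238 below without that library. FT, the mobile flowering signal, had -0.30 (SE 0.14) and SOC1, a floral integrator, 0.03 (SE 0.09). The limma adjusted p of all 8 genes was 1.00.

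Over the 28 lists with 342 genes, the calls were MRD1 and HEI10, and among 72 tested chloroplast genes PETG was called. MRD1 and HEI10 are in the list of the MRD1 locus, and the lists were chosen with earlier results of these data known. Their count therefore tells nothing about the lists. Over all tested genes 0.0264% were called. The lists for abscisic acid, cold, iron, the circadian clock, ER bodies, flavonoids, aquaporins and cell cycle held no call, and their medians ran from -0.10 for flavonoids to 0.03 for abscisic acid.

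The double mutant, which carries both mutations, did not follow one single mutant throughout. Over the 23 genes made up of the 3 calls on longer loci and the 20 not called genes with the lowest p, the dd-2 mean on the log2(FPKM + 1) scale was nearer dek3-2 in 13 and nearer dek4-2 in 10. Nearer does not mean alike: in some, such as SAUR23, PIF4 and AT3G25930, dd-2 lay outside both single mutants, and in others, such as PDF1.2C, between them. DEK3, itself mutated in dd-2, is among the 23, as are MRD1 and HEI10, which may count the same molecules. So are the 3 neighbours AT3G13432, AT3G13435 and AT3G13437. Col-0 was nearer dek3-2 in 8 and nearer dek4-2 in 15. The 23 were picked for no overlap between the single mutants, and the same shares over all tested genes were not computed, so the counts describe these genes only. Across the 8 libraries the genes whose log2(FPKM + 1) was most like that of MRD1 were AT1G11150 and HEI10 (both Pearson r = 0.960), AT5G23680 (0.942), DEK3 (0.941) and CYP71A25 (0.940). These 8 points are 4 pairs of libraries of the same genotype, and the likeness is a description. Of the 5, HEI10 alone was called between dek4-2 and dek3-2, and AT1G11150 ran from 2.70 FPKM in dd-2 to 3.64 FPKM in dek4-2.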

How the data were processed

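Each of the 8 libraries has 1 deposited file of FPKM for 33557 genes, a unit taken per the file headers. The submitters' processing notes name HISAT2, featureCounts, edgeR and TAIR10 without versions, and the program that wrote the FPKM is not given in the sources used here. The test was limma 3.58.1 (R 4.3.3; variance trend, robust estimation) on log2(FPKM + 1), contrast dek4-2 minus dek3-2. It fitted 1 mean per group to all 8 libraries and kept genes whose 4 dek3-2 and dek4-2 libraries averaged 1 FPKM or more. P-values were adjusted by Benjamini-Hochberg over all 18940 genes and called below 0.05. Differences on this scale understate the change of low genes. The replicates are labelled biological. Each p-value weighs a difference against the spread within the groups over all 8 libraries, which limma adjusts towards that of genes at a similar level.

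Fragments per FPKM were read from the steps between low values on single-exon genes, 99.5% to 99.9% of which lay within 0.15 of a whole number of fragments. Fragment numbers are approximate and were not tested. Locus codes matched RefSeq TAIR10.1 for 32813 genes; positions are TAIR10 as in the files, counted from 1. Up to 10 not called genes a direction and 4 members of each list, by lowest p, were named by rule. The comparison, lists and named genes were chosen with earlier results of these data known. The fit was tested on simulated data. Python 3.11.15 with matplotlib 3.10.9 drew the figures. Replicate numbers carry no stated meaning, and deviations of same-numbered libraries did not correlate above 0.1 in every pair of groups, so the fit has no replicate block.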

Additional observations from a re-analysis of the deposited data

How the results depend on the processing

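The comparison was refitted under 20 alternatives, of which the filter on all 8 libraries and the removal of length, GC and purine trends were chosen after seeing the data. The 3 calls on loci of 300 bp or more were kept in each alternative that left both libraries of both mutants in the fit. Over all 20 the difference ran from 4.61 to 6.38 for MRD1, 2.28 to 3.36 for HEI10 and -1.80 to -1.59 for AT5G11330. Leaving out loci under 300 bp removes 2 of the 5 calls by its own rule, and the other 3 were kept. The 2-fold minimum could not remove a call, as all 5 differed by more than 2-fold. On longer loci the count moved from 3 to 5 when only the 4 single-mutant libraries were fitted. Leaving out each library in turn gave 5 to 24 calls over all genes and 3 to 16 on longer loci, the most without dek3-2 replicate 2, where seed genes of replicate 1 were among the gains, such as SESA5 (-5.16). Without dek3-2 replicate 1 there were 12 calls, and without either dek4-2 library 14. The median over all genes was -0.0023 after median-of-ratios scaling, with 9320 genes above 0 and 9620 below, against 6629 and 12311. AT5G27247 lost its call in some alternatives that kept both libraries of each mutant, where its limma adjusted p reached 0.331. Its difference ran from 2.54 to 6.22 over the 19 alternatives in which it was tested.

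The replicate number as a block gave 6 calls, 4 of them on longer loci, and added AT2G41730. Genes at an unadjusted p below 0.05 went from 515 to 767. Deviations of same-numbered dek3-2 and dek4-2 libraries correlated at 0.0876, and over the 6 pairs of groups at -0.0253 to 0.265, and the labels give the number no meaning, so the samples are not treated as pairs. Some levels did differ by number in the same direction in all 4 groups: the chloroplast share was 1.19% to 1.43% in replicates 1 and 1.79% to 1.87% in replicates 2, and the summed iron, flavonoid, methionine and rhamnose lists were higher in replicate 2. What the number marks is not given in the sources used here.

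Small differences changed sign in some refits. After median-of-ratios scaling DEK1 stood at 0.014, DEK2 at 0.00839 and MAF3 at 0.027, and DEK1 at 0.011 with length, GC and purine trends removed. Over the libraries left out, DEK1 ran from -0.32 to 0.28, DEK2 from -0.26 to 0.21, FLC from -0.45 to 0.070, MAF2 from -0.38 to 0.045, MAF3 from -0.11 to 0.10 and SOC1 from -0.043 to 0.096. The cause was not tested. With 2 libraries a group, a gene at the median standard error would have needed a difference of about 1.2 to reach the p of the last call. Genes near 0 in dek3-2 rest on few fragments.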
